A study of Mus with 4 samples.

Results

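*Gm10800* (ENSMUSG00000075014) and *Gm10801* (ENSMUSG00000075015) are a pair of mouse predicted genes described as short and repeat-like. They were chosen by measured values, since *Gm10800* has the highest mean of all 55487 gene IDs in the deposited expression table, and they were matched by Ensembl ID with the version suffix dropped. Both members were found, so the account covers 2 of 55487 IDs. RNA-Seq was performed on hearts of newborn mice at postnatal day 0 (P0), with 2 libraries from WT mice and 2 from mice that overexpress miR-187. In the mouse line of the study, made on a C57BL/6J background, a single copy of mmu-miR-187 was placed at *Rosa26* behind the *Tek* (*Tie2*) promoter, which limits it to endothelial cells. The labels give no zygosity, and the study's methods name KI/KI and WT pups. For the cells sequenced, they give cardiac endothelial cells, and the labels give heart. Whether a library came from 1 heart or from pooled hearts was not stated, so p-values measure only the spread between these libraries.

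As background, satellite DNA consists of short units repeated in tandem many times over. In the mouse, the major satellite fills the heterochromatin beside the centromeres and its transcription is usually kept low. A few stretches of such repeats carry the label of a predicted gene in gene annotations. Reads from any copy of a repeat can be placed on an annotated copy, so the value of such an ID need not describe 1 transcript. *Gm10800* and *Gm10801* are annotated next to each other and have no established function. Their sequences were not used here, and their repeat content was therefore not checked.

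Values are FPKM (the fragments of an ID per kilobase of its transcript, scaled to the mapped total of the library), as made by the authors. The table holds no read counts, so the depth of each library is unknown and neither counting intervals nor limits of detection are given. The 4 libraries had FPKM sums between 750826 and 807359. Gene names are not paired with the IDs of the table, so neither heart markers nor a check of the miR-187 genotype was analysed here, and IDs other than the 2 members are given without names. The 32848 IDs of lowest expression (means over 0 but under 0.5 FPKM) averaged 0.372 FPKM in WT replicate 1, 0.263 FPKM in miR-187 replicate 1 and 0.151 FPKM in either replicate 2.

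*Gm10800* stood far above every other ID in both replicate 1 libraries and was several-fold lower in both replicate 2 libraries, with 8 IDs above it in miR-187 replicate 2. It had 149753 FPKM in WT replicate 1, 33383 FPKM in WT replicate 2, 164609 FPKM in miR-187 replicate 1 and 23981 FPKM in miR-187 replicate 2. One library of each genotype was thus high and the other low, and the values of the genotypes overlapped. Replicate 1 exceeded replicate 2 by 4.49-fold in WT and by 6.86-fold in miR-187. *Gm10800* ranked at 1 among all IDs in 3 libraries and at 9 in miR-187 replicate 2. Its mean of 92932 FPKM, the value that chose it, was 3.17 times the next-highest mean, that of ENSMUSG00000100862.1 (29289 FPKM).

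*Gm10801* followed the same course at a lower level. It had 3390 FPKM in WT replicate 1, 614 FPKM in WT replicate 2, 3269 FPKM in miR-187 replicate 1 and 454 FPKM in miR-187 replicate 2. Again both replicate 1 libraries lay above both replicate 2 libraries, and the genotypes overlapped. The gap between replicates was 5.52-fold in WT and 7.19-fold in miR-187. It ranked at 23 and 22 in the replicate 1 libraries of WT and miR-187, and at 126 and 142 in the replicate 2 libraries. By its mean of 1932 FPKM it ranked at 37, between IDs with means of 1982 and 1687 FPKM. FPKM is scaled by gene length, so the 48.1-fold difference between the means of *Gm10800* and *Gm10801* is a difference in level per length. The repeat-like IDs may share reads with near-identical copies, so the level of each is uncertain. In bulk tissue, fewer cells of a type and less RNA per cell cannot be told apart.

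**Figure D1:**
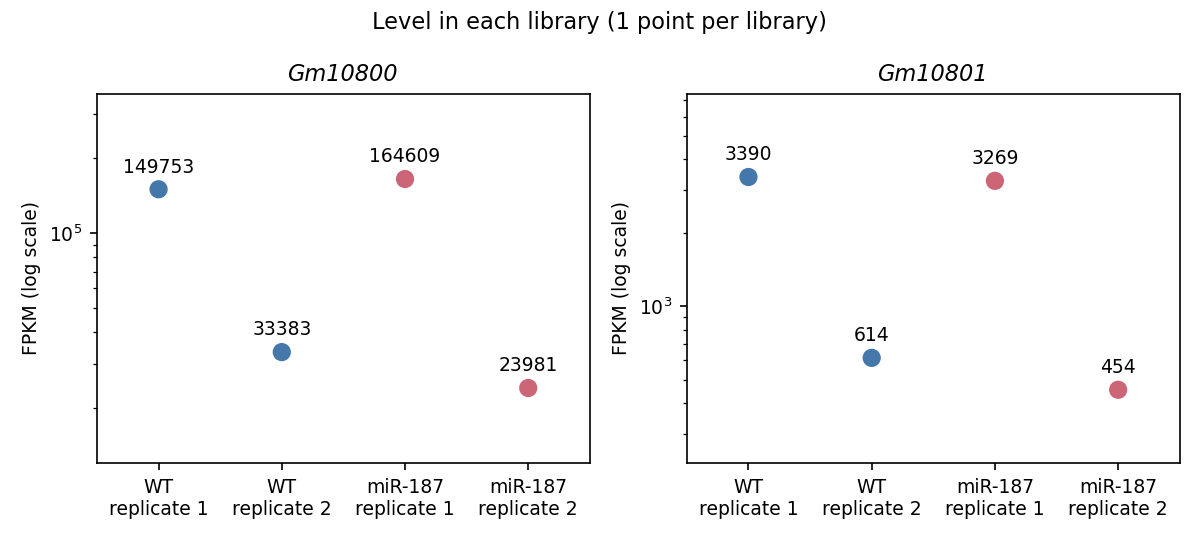
FPKM of *Gm10800* (left) and *Gm10801* (right) in each library on a log axis, with 1 point per library, WT in blue and miR-187 in red. In both panels the replicate 1 libraries lie above the replicate 2 libraries of either genotype, with 149753 and 164609 FPKM against 33383 and 23981 FPKM for *Gm10800*.

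Few other IDs varied this much. The within-group standard deviation on the log2(FPKM + 1) scale was 1.76 for *Gm10800* and 1.88 for *Gm10801*. Over the 3737 IDs that averaged 10 FPKM or more its median was 0.345 and its 95th percentile 0.785, and 24 of these IDs had a larger value than *Gm10800*. The highest library exceeded the lowest by 6.86-fold for *Gm10800* and 7.46-fold for *Gm10801*. For the other 9 of the 10 IDs with the highest means, the same quotient lay between 1.20 and 2.49. These 9 IDs are the nearest to *Gm10800* in level, and none showed a spread of that size. Of 55 IDs that averaged 1000 FPKM or above, 5 reached the quotient of *Gm10800*: both members and 3 IDs that shared their pattern.

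For this pair no difference between genotypes was detectable. *Gm10800* averaged 91568 ± 82286 FPKM in the WT and 94295 ± 99439 FPKM in the miR-187 hearts (SD, n = 2 each). The log2 difference, miR-187 minus WT on the log2(FPKM + 1) scale, was -0.17 ± 0.69 (standard error; limma, Benjamini-Hochberg adjusted p = 1.00). The 95% interval ran from -1.61 to 1.27, that is, from 0.328-fold to 2.40-fold. The standard error is moderated towards that of other IDs; from the values of *Gm10800* alone it would be 1.76. Taken by replicate number, the difference was 0.14 for the replicate 1 libraries and -0.48 for the others. A single library set its direction: it was 0.91 without WT replicate 1 and 1.22 without miR-187 replicate 2 (limma adjusted p = 0.0298), but -1.25 without WT replicate 2 and -1.56 without miR-187 replicate 1 (limma adjusted p = 8.88e-06). In all 4 of those fits the prior degrees of freedom of limma came out infinite, which leaves the spread of *Gm10800* itself out of its test.

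*Gm10801* averaged 2002 ± 1962 FPKM in the WT and 1862 ± 1990 FPKM in the miR-187 hearts (SD, n = 2 each). This gave a log2 difference of -0.24 ± 0.72 (standard error), with a 95% interval from -1.74 to 1.25 (limma adjusted p = 1.00). By replicate number it was -0.05 for the replicate 1 libraries and -0.43 for the others. Leaving out miR-187 replicate 1 moved it to -1.66 and leaving out miR-187 replicate 2 to 1.18, and it was 0.99 without WT replicate 1 and -1.47 without WT replicate 2. None of these 4 values passed the threshold, at limma adjusted p-values of 0.165 or higher. Of the 14325 IDs tested (means of 1 FPKM or above), 0.00698% had an adjusted p under 0.05 and 1.42% were at least 2-fold apart; 0 of the 2 members met either criterion. Genotypes that did not overlap were found for 25.5% of IDs and for 0 of the 2 members. The median log2 difference over all these IDs was -0.04.

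The members kept a near-constant ratio to each other while their levels changed several-fold. *Gm10801* amounted to 2.26% of *Gm10800* in WT replicate 1, 1.84% in WT replicate 2, 1.99% in miR-187 replicate 1 and 1.90% in miR-187 replicate 2. The mean was 2.00% ± 0.188 (SD over the 4 libraries), and the highest ratio was 1.23 times the lowest. Over the other 3735 IDs that averaged 10 FPKM or more, the ratio to *Gm10800* varied by a median of 8.54-fold. An ID with equal values in all libraries would show 6.86-fold, the range of *Gm10800* itself. Only 1 of them, ENSMUSG00000095280.1, held its ratio to *Gm10800* as closely as *Gm10801* did.

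*Gm10800* took up a large and unequal part of each library. It accounted for 18.5% of the FPKM sum in WT replicate 1, 4.45% in WT replicate 2, 21.0% in miR-187 replicate 1 and 3.03% in miR-187 replicate 2. *Gm10801* added 0.420% and 0.417% in the replicate 1 libraries of WT and miR-187, against 0.0818% and 0.0574% in their replicate 2 libraries. Together the members held 11.7% ± 10.2 in WT and 12.2% ± 13.0 in miR-187 (SD, n = 2 each). The difference between the means was 0.498 percentage points, far below the spread within either genotype. The smallest p that an exact permutation test allows for 2 against 2 libraries is 0.333, and the shares were not tested. The difference was -8.66 percentage points when miR-187 replicate 1 was left out and 9.66 when miR-187 replicate 2 was, with 7.72 without WT replicate 1 and -6.72 without WT replicate 2.

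The other 9 of the 10 highest IDs held 26.3% of the sum in WT replicate 1, 27.8% in WT replicate 2, 26.1% in miR-187 replicate 1 and 36.2% in miR-187 replicate 2. Shares of 1 sum are tied, so a lower share of *Gm10800* raises that of the others by construction. With the members left out and the libraries rescaled to a common sum, the 9 IDs together had 254502 FPKM in WT replicate 1, 227886 FPKM in WT replicate 2, 260465 FPKM in miR-187 replicate 1 and 293036 FPKM in miR-187 replicate 2. As deposited, these sums were 212462 and 208450 FPKM in WT replicates 1 and 2 and 204830 and 287137 FPKM in miR-187 replicates 1 and 2. Under both scalings replicate 1 was the higher in WT and the lower in miR-187. After rescaling the WT replicates lay farther apart and the miR-187 replicates closer together, and the highest library was 1.29 times the lowest, against 1.40 times as deposited. The IDs of low expression followed *Gm10800* in part. Their mean was highest in WT replicate 1 (0.372 FPKM), whereas *Gm10800* and its share were highest in miR-187 replicate 1. Both measures were higher in replicate 1 than in replicate 2 of each genotype. The part of these low values in the levels of *Gm10800* was not tested.

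**Figure D2:**
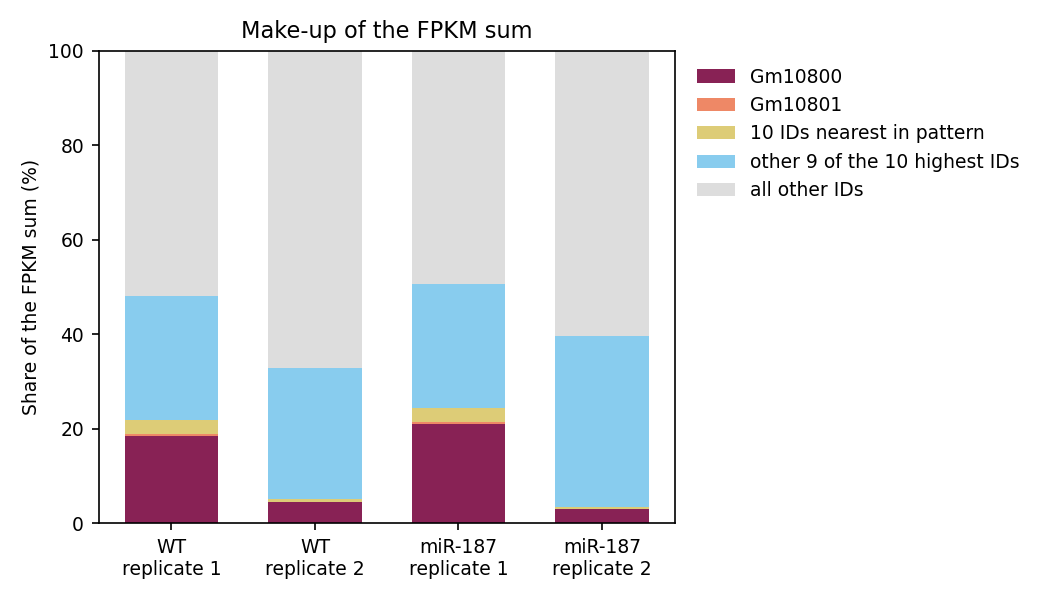
Share of the FPKM sum of each library (%) held by *Gm10800*, *Gm10801*, the 10 IDs nearest to *Gm10800* in pattern, the other 9 of the 10 highest IDs and all remaining IDs. The bars of *Gm10800* reach 18.5% and 21.0% in the replicate 1 libraries and 4.45% and 3.03% in the replicate 2 libraries; those of *Gm10801* are too thin to read.

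A small group of IDs shared the pattern of *Gm10800*. Likeness was measured over the 4 libraries as the root mean square difference of log2(FPKM + 1) values, each centred on the mean of its ID, among the 3736 other IDs that averaged 10 FPKM or more. The median distance was 1.35 and the 5th percentile 1.09; an ID with equal values in all libraries would lie at 1.25. *Gm10801* lay at 0.113, and 1 ID was nearer. With a limit of 0.5, set after the values were seen, 10 IDs fell inside besides *Gm10801*; the last of them lay at 0.483 and the next ID outside at 0.512. As the IDs were picked for their likeness, these distances are a description and were not tested.

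The nearest ID was ENSMUSG00000095280.1, at a distance of 0.0363. It had 14751 FPKM in WT replicate 1, 3331 FPKM in WT replicate 2, 15707 FPKM in miR-187 replicate 1 and 2245 FPKM in miR-187 replicate 2. Like *Gm10800*, it was highest in miR-187 replicate 1 and lowest in miR-187 replicate 2, and it remained at 9.36% to 9.98% of *Gm10800* in every library. The next in order were ENSMUSG00000074564.3 (distance 0.159), ENSMUSG00000096519.1 (0.183), ENSMUSG00000091028.1 (0.271) and ENSMUSG00000096385.7 (0.288). Their means spanned a wide range of levels, from 57.4 FPKM for ENSMUSG00000074564.3 to 2554 FPKM for ENSMUSG00000091028.1. The order of the libraries seen for *Gm10800* (miR-187 replicate 1, WT replicate 1, WT replicate 2, miR-187 replicate 2) was shared by 7 of the 10 near IDs and by 1.91% of the remaining 3725 IDs. The order seen for *Gm10801*, with WT replicate 1 on top, was shared by 2 of the 10 and by 1.26% of the remaining 3725. The near IDs were picked for likeness over the same 4 libraries, so their orders largely follow from that choice and were not tested.

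Taking both genotypes at once, 8 of the 3735 other IDs that averaged 10 FPKM or more (0.214%) had a replicate 1 value at least 4 times the replicate 2 value in WT and also in miR-187. Of these 8 IDs, 7 were among the 10 nearest to *Gm10800*. Those 10 were picked for likeness to this pattern, so the overlap is largely built in and was not tested. The quotient of the replicates was taken of FPKM + 1 values. The 10 near IDs together summed to 22671 FPKM in WT replicate 1, 4935 FPKM in WT replicate 2, 24009 FPKM in miR-187 replicate 1 and 3158 FPKM in miR-187 replicate 2. They held 2.81%, 0.657%, 3.06% and 0.399% of the FPKM sums in the same order. With the members they made up 21.8% and 5.19% of the WT sums and 24.5% and 3.48% of the miR-187 sums.

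**Figure D3:**
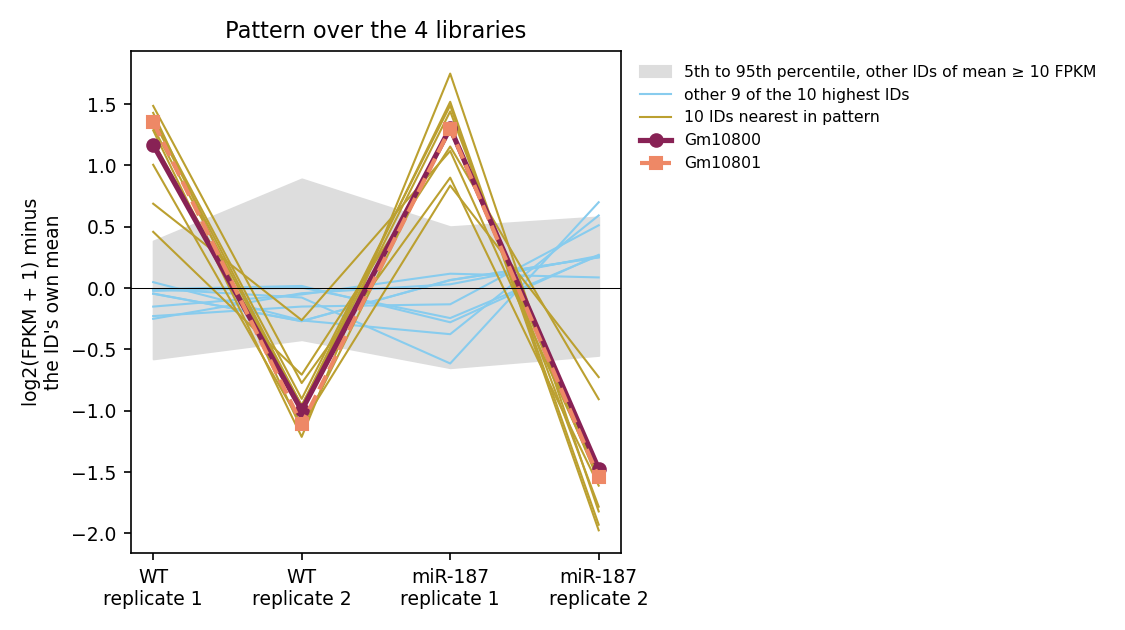
Values of log2(FPKM + 1) minus the mean of each ID over the 4 libraries, for *Gm10800*, *Gm10801*, the 10 IDs nearest in pattern and the other 9 of the 10 highest IDs; the grey band spans the 5th to the 95th percentile of the other 3735 IDs that averaged 10 FPKM or more. The members lie above the band in both replicate 1 libraries and below it in both replicate 2 libraries, and cross from 1.30 to -1.47 (*Gm10800*) between the miR-187 libraries.

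Since FPKM divides by the mapped total of a library, an abundant ID lowers the values of all others. The members were therefore left out and the other IDs rescaled to a common FPKM sum, which also evens out the differences between the full sums. Without the members, WT replicates 1 and 2 summed to 654216 and 716828 FPKM, and miR-187 replicates 1 and 2 to 616273 and 767889 FPKM. They differed by up to 1.25-fold between libraries, against 1.08-fold for the full sums. The full sum was thus 1.23 and 1.05 times that of the other IDs in WT and 1.27 and 1.03 times in miR-187. On the log2 scale this quotient was higher in replicate 1 by 0.24 in WT and by 0.30 in miR-187, and its mean was higher in miR-187 than in WT by 0.01. Evening out the full sums alone would shift replicate 1 against replicate 2 by -0.10 in WT and by 0.01 in miR-187, and miR-187 against WT by -0.02. The rescaling applied combines both and shifted replicate 1 against replicate 2 by 0.13 in WT and by 0.32 in miR-187, and miR-187 against WT by -0.00654. The FPKM sum weights each ID per length, so these quotients need not reflect the part of the mapped fragments that the members took up. Gene lengths were not used here.

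Within genotypes, rescaling shifted the balance between replicates. Over 3725 IDs that averaged 10 FPKM or more (members and near IDs left out), the median log2 difference of replicate 1 minus replicate 2 went from -0.33 to -0.20 in WT and from -0.00486 to 0.30 in miR-187. In miR-187 the share of IDs with the higher value in replicate 1 rose from 49.8% to 70.6%, and in WT from 25.7% to 34.0%. The outcome depended on level. Over the 300 IDs that averaged 200 FPKM or more, the median moved from -0.36 to -0.23 in WT and from -0.31 to 0.01 in miR-187, so the offset between the miR-187 replicates all but vanished. Over the 14313 IDs that averaged 1 FPKM or more, the median moved away from 0 in both, from -0.04 to 0.07 in WT and from 0.19 to 0.44 in miR-187.

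The spread within genotypes changed in the same manner. At a mean of at least 200 FPKM, 78.3% of IDs had a smaller within-group standard deviation after rescaling, and its median fell from 0.400 to 0.313. At 50 FPKM or more this held for 64.9% of IDs, at 10 FPKM or more for 47.9% and at 1 FPKM or more for 26.3%. Over the last of these sets the median standard deviation was larger after rescaling, at 0.374 against 0.313. A single factor per library thus brought the replicates closer together for most, but not all, IDs of at least 200 FPKM, and did not do so for most IDs when all of at least 1 FPKM were counted.

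**Figure D4:**
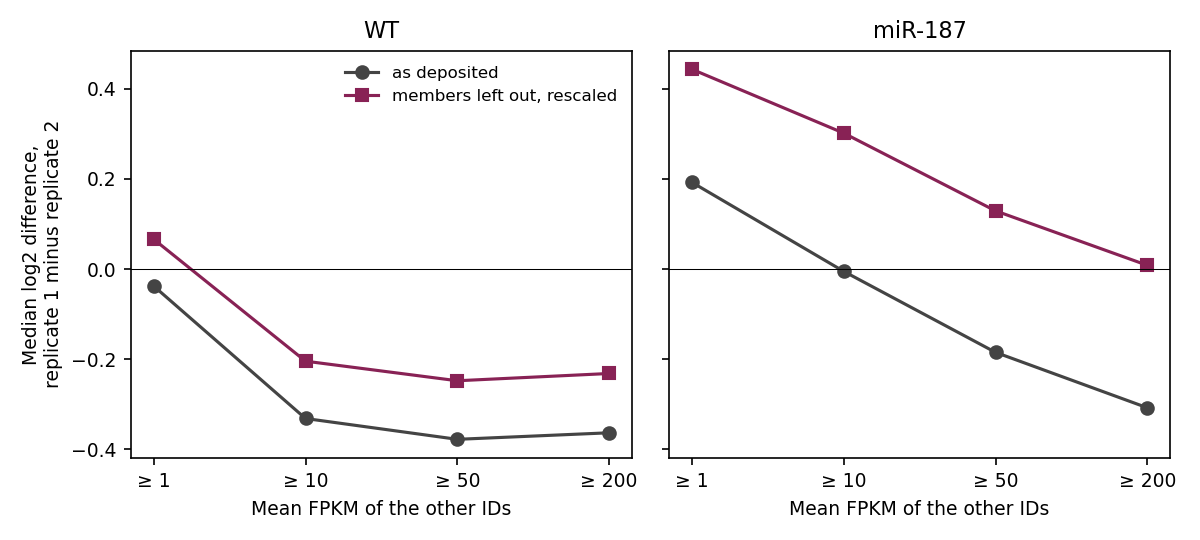
Median log2 difference of replicate 1 minus replicate 2 over IDs above 4 minimum means (at least 1, 10, 50 and 200 FPKM), in WT (left) and miR-187 (right), as deposited (grey circles) and with *Gm10800* and *Gm10801* left out and the other IDs rescaled (purple squares). Rescaling raises every point, and for the miR-187 IDs of at least 200 FPKM it moves the median from -0.31 to 0.01.

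Between genotypes, this rescaling hardly altered the fold changes, and each genotype contained 1 library with a high share and 1 with a low share. Rescaling changed the log2 difference of another ID by a median of 0.00624 and by at most 0.148. The same factor was applied to every ID of a library. A small change thus follows from the shift of -0.00654 between genotypes, apart from the 1 FPKM added before the log. The sign changed for 101 of 14323 IDs, all with a log2 difference within 0.03 of 0 as deposited. A 2-fold change or more was seen for 86 IDs upward and 117 downward in miR-187 as deposited, and for 91 and 124 after rescaling; all 86 and all 117 were among the latter. With a common FPKM sum and the members kept, 85 were higher and 125 lower.

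The number of IDs past the limma threshold did change. As deposited, 0 IDs passed it upward and 1 downward in miR-187, and 447 had an unadjusted p under 0.05. A common FPKM sum with the members kept also gave 0 and 1. With the members left out, 20 were higher and 12 lower, or 0.223% of the IDs tested, with 415 at an unadjusted p under 0.05. Rescaling took the prior degrees of freedom estimated by limma from 19.5 to infinite, at which an ID's own spread no longer counts. Of the 32 IDs, 14 had genotypes that did not overlap, and for 18 the library farthest from the median was miR-187 replicate 2. When the prior degrees of freedom were held at 19.5 (a setting added after the data were seen), the rescaled values again gave 0 higher and 1 lower ID. That ID, ENSMUSG00000086429.9, was past the threshold in each of these fits, with a log2 difference of -2.75 as deposited and -2.87 after rescaling (limma adjusted p = 0.00152 and 1.10e-06). It did not pass with no filter on low values or with quantile normalization, where 0 IDs passed.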

How the data were processed

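The authors deposited 1 table of FPKM values with 1 column per library. The submitters' processing notes name HISAT2, StringTie and DESeq2 and the build mm10, without versions or roles; annotation and use of strand are not given in the sources used here. Libraries were grouped by their labels (2 WT, 2 miR-187). The members and lists were chosen with earlier results of these data known.

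Values were transformed as log2(FPKM + 1). The 14325 IDs whose mean reached 1 FPKM were tested with limma 3.58.1 in R 4.3.3 (eBayes with a mean-variance trend, no replicate block, two-sided, Benjamini-Hochberg over all IDs, threshold 0.05). Other values were computed in Python 3.11.15. Tested on simulated data from these libraries (14325 IDs, 200 changed), the fit recovered 16.3% of log2 changes of 1 and 94.6% of those of 2, with a mean of 11 false calls. The simulation drew independent noise for each ID at its moderated spread, with no offset or outlier of a library. For both members that spread was smaller than their own, so these rates need not apply to them.

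IDs named in the text were the members, their neighbours by mean, the 5 IDs nearest in pattern and IDs past the threshold as deposited. The rule also covered the further IDs past the threshold after rescaling, which are given as counts. The reference table (RefSeq, GRCm38.p6) held 0 Ensembl IDs in 49997 rows and matched 0 IDs, so the 8 gene lists and 6 marker lists drawn up by symbol, gene lengths and sequences were not used here. The alternatives changed the pseudocount (0.1), the minimum mean (0.1 or 5 FPKM, or none), the scaling (5 further kinds), the eBayes trend and the block, or left out each library in turn.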

Additional observations from a re-analysis of the deposited data

How the results depend on the processing

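With all 4 libraries kept, the log2 difference of *Gm10800* between genotypes was negative under each of the 13 alternatives, from -0.96 (quantile normalization) to -0.13, and that of *Gm10801* from -0.26 to -0.05; neither passed the limma threshold, at adjusted p-values of at least 0.999. Leaving out 1 library gave values from -1.56 to 1.22 for *Gm10800* and from -1.66 to 1.18 for *Gm10801*. These fits assume that the lone library of a genotype varies like the other genotype. The difference in the members' share of the FPKM sum ran from -8.66 to 9.66 percentage points over the same omissions.

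Of the counts of 0 higher and 1 lower ID past the limma threshold, requiring a mean of 0.1 FPKM gave 31 and 15, blocking on the replicate number 33 and 18 (the replicate block), leaving out the members 20 and 12, and leaving out the members and the 10 near IDs, chosen after seeing the data, 19 and 12; in each of these fits the prior degrees of freedom were infinite. No filter and quantile normalization gave 0 lower. So did a required mean of 5 FPKM, which the 1 lower ID, ENSMUSG00000086429.9, did not reach, so it was not tested there. Leaving out 1 library gave from 11 to 62 higher and from 14 to 56 lower, also with infinite prior degrees of freedom. IDs at least 2-fold apart, 86 higher and 117 lower, became 240 and 356 with a pseudocount of 0.1, a setting that widens low-level differences; the former became 47 when 5 FPKM were required and fewer IDs tested. They ran from 128 to 281 higher and from 214 to 603 lower without 1 library.

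The median log2 difference between replicates (-0.33 in WT, -0.00486 in miR-187) was -0.037 in WT over IDs of 1 FPKM or more. In miR-187 it was 0.30 with the members left out, and, as alternatives chosen after seeing the data, 0.35 with the near IDs left out too and -0.31 over IDs of 200 FPKM or more.

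The replicate block changed no call for the members. Deviations of same-numbered libraries from their genotype means correlated across IDs with r = -0.0675, and the labels tie them to no litter or batch; they were treated as names only. Shares of mapped fragments, the ratio of the members per fragment and a sum without mitochondrial genes needed lengths or names and were not run. What depth limits is unknown without counts.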
